A study of Mus musculus with 36 samples.

Results

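The cytosolic ribosomal protein genes code for the proteins of the large (60S) and small (40S) ribosomal subunits. They were taken as the protein-coding genes of GENCODE M21 whose symbol starts with Rpl or Rps followed by a digit, together with Rpsa, Rplp0, Rplp1 and Rplp2, leaving out symbols with -ps and the Rps6k kinases. The rule gave 86 genes, and 83 of them had at least 1 of the 219945 introns listed in each library, out of 31890 genes with a listed intron. Rps27rt, Rpl10l and Rpl36al had no listed intron and so have no value. Of the 83 genes, 46 code for large-subunit proteins, 31 for small-subunit proteins, and 6 are paralogs or genes caught by their name (Rpl22l1, Rps27l, Rpl39l, Rpl3l, Rpl7l1 and Rps19bp1, the last of which codes for a binding partner of Rps19 and not for a ribosomal protein). The 83 genes lie on 19 chromosomes, with 14 of the 86 on chromosome 7, 8 on chromosome 17 and 4 on the X chromosome, and they hold 364 of the listed introns.

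The samples were polyadenylated RNA from C57BL/6 mice that were wild type (WT) or Zrsr2-deficient (KO). The 3 kinds of myeloid precursor, common (CMP), granulocyte-monocyte (GMP) and megakaryocyte-erythroid (MEP), were sorted from 3 male littermates of each genotype, and embryonic fibroblasts (MEF) were prepared from 3 male embryos of each genotype. Lin-Kit+ bone marrow cells of each genotype were cultured outside the animal and transduced with a control hairpin or with 1 of 2 hairpins against Zrsr1, sh1 or sh10, in experiments 1 and 2, which gives 2 libraries for each of 6 groups. The sources used here do not give the allele by which Zrsr2 was removed, the animals' age or how many mice were pooled for a culture. The labels do not say whether CMP, GMP and MEP libraries of the same number came from 1 mouse. They also do not say that the 2 Lin-Kit+ experiments used separate mice, so p-values there measure the spread between these samples only.

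Zrsr2 codes for a protein of the minor spliceosome, the machinery that removes the rare U12-type introns, and Zrsr1 is its close relative in the mouse. Ribosomal protein genes are among the most strongly expressed genes of any growing cell. Many of their mRNAs start with a run of pyrimidines at the cap (the 5′ terminal oligopyrimidine, or TOP, motif) through which mTOR signalling and LARP1 control their translation together. Their introns are short and often carry small nucleolar RNAs (snoRNAs), which guide the modification of ribosomal RNA. In blood formation the family is known from Diamond-Blackfan anaemia, a failure of red cell production caused by loss of 1 copy of a ribosomal protein gene such as Rps19, Rpl5 or Rpl11. Rpl5 and Rpl11 also bind Mdm2 when ribosome assembly fails, which stabilises p53.

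The start regions were searched for the TOP motif, which is a run of pyrimidines at the first base. Of the 86 genes, 66 matched a promoter in the RefSeq table (GRCm38.p6), 57 of them genes of ribosomal proteins proper. A run of at least 8 pyrimidines on the coding strand, reaching within 5 bases of the annotated start, was present in 22 of the 57 (38.6%). Of all 27025 genes with a promoter, 11% had one. Such a run need not cover the first base: that of Rpl4, 14 bases from -18, ends before the annotated start. The letters CCGGAAG, the core of the ETS and GABP family's binding motif, were found on either strand within the 300 bases in 24 (42.1%), against 9.93%. ATGGCG, part of the YY1 motif, was found on either strand in 16 (28.1%), against 10.2%, and the longer AAGATGGCG, which contains it, in 3 (5.26%), against 1.64%. TATAAA, searched on the coding strand upstream from 40 to 15 bases before the start, was found in 0 of the 57, against 2.41%. The windows below run from 60 bases before to 30 bases after the annotated start. They are shown for 4 genes with such a run that the results return to, for the paralog Rpl22l1, and for Rpl41 and Rps2, which rose in MEP and have no run at the annotated start. Capitals mark the pyrimidine run or, in Rpl41, the CCGGAAG letters.

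Rpl14 (chr9:120571457-120571546, plus strand): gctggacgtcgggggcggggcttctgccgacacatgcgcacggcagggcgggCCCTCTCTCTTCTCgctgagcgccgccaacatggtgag
Rpl35 (chr2:39005102-39005191, minus strand): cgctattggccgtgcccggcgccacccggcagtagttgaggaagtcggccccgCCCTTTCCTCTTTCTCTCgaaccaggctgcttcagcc
Rpl4 (chr9:64173327-64173416, plus strand): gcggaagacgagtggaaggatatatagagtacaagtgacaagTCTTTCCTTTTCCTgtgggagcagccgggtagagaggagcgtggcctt
Rps27 (chr3:90213619-90213708, minus strand): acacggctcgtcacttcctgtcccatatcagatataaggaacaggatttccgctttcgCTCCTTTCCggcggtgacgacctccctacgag
Rpl22l1 (chr3:28805448-28805537, plus strand): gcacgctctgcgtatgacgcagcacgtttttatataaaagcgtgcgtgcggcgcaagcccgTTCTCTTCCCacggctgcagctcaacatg
Rpl41 (chr10:128549139-128549228, minus strand): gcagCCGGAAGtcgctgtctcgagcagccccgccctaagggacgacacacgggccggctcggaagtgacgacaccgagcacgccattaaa
Rps2 (chr17:24720003-24720092, plus strand): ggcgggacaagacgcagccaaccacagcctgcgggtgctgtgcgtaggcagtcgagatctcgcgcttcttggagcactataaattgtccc

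Expression was read from spliced reads, that is, reads that jump across an intron. A gene's value is the sum over its introns, given as CPM, its count per 1000000 spliced counts of the library, and a comparison of different genes uses the mean CPM per intron, since a gene with more introns collects more spliced reads. The spliced counts of a library came to 44083233 to 84832431 for progenitors, 43514139 to 61124920 for MEF and 30481450 to 43345548 for the cultured marrow cells. Zrsr2 itself had 725 to 2147 spliced counts in each WT library and 0 to 57 in each KO library, in keeping with the genotype labels. Zrsr1, the target of the hairpins, has a single exon in GENCODE M21 and so no spliced reads, and its knockdown was not measured here. The sorted populations carried the markers of their names: the summed erythroid markers stood at 7485 to 8284 CPM in WT MEP against 139.5 to 351.1 in WT GMP, the GMP markers at 26490 to 31770 CPM in WT GMP against 36.76 to 56.39 in WT MEP, and the fibroblast markers at 57710 to 68120 CPM in WT MEF. Macrophage markers reached 329.8 to 2071 CPM in the 6 MEF libraries. In bulk RNA, fewer cells of a type and less RNA per cell cannot be told apart.

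Ribosomal protein genes took a large and cell-type-dependent share of all spliced counts. In WT MEP the share was 15.49, 15.52 and 14.37% in the 3 mice, in WT CMP 14.66, 14.76 and 14.42%, and in WT GMP 13.09, 13.79 and 12.92%. WT MEF stood at 6.71, 6.929 and 7.555%. WT GMP lay below both other WT progenitors with no overlap, whereas WT CMP and MEP overlapped. The mean difference was -1.35 percentage points between GMP and CMP, 1.86 between MEP and GMP and 0.513 between MEP and CMP, with exact two-sided permutation p = 0.1, 0.1 and 0.4, where 0.1 is the smallest p that 3 against 3 allows. In KO cells the means were 14.65% in CMP, 13.25% in GMP, 15.14% in MEP and 6.603% in MEF. KO GMP again lay wholly below KO MEP but overlapped KO CMP. The highest KO GMP library stood at 14.22% and the lowest KO CMP library at 14.16%.

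**Figure D1:**
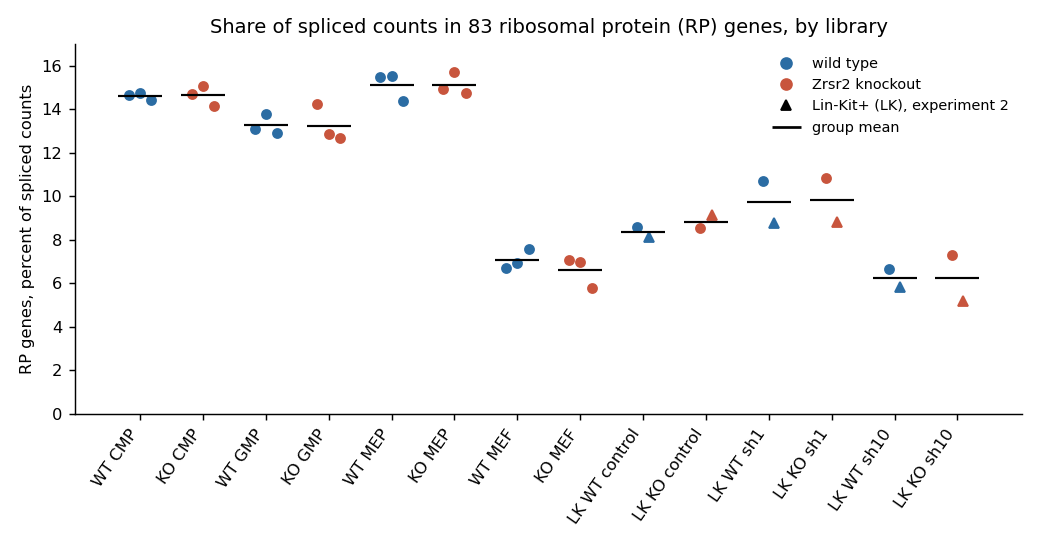
Share of all spliced counts that fell on the 83 ribosomal protein genes (percent, vertical axis) in each of the 36 libraries, grouped by cell type, genotype and hairpin, with a bar at each group mean. The progenitors lie between 12.67 and 15.72%, MEF between 5.79 and 7.555% and the Lin-Kit+ libraries between 5.168 and 10.85%, where the sh1 libraries lie above the sh10 libraries of the same genotype and experiment.

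Per intron, the 77 genes of ribosomal proteins proper lay within a narrow band. Averaged over the 12 WT libraries of CMP, GMP, MEP and MEF, the lowest was Rpl41 at 177.2 CPM per intron, the median 366.9 and the highest Rplp1 at 794.7, a ratio of 4.485 between the ends. Rplp1 codes for a protein of the stalk, the arm of the large subunit that recruits translation factors. It was followed by Rps12 at 791.6, Rps29 at 702.4, Rpl32 at 657.3 and Rpsa, the laminin receptor precursor of the small subunit, at 620.5 CPM per intron. The order of the group means differed between cell types. In WT CMP, Rpl32 at 875.5, Rpl39 at 846.7, Rps29 at 796.5 and Rps12 at 780.0 CPM per intron stood above Rplp1 at 676.2. In WT GMP, the means of Rps12 at 875.2 and Rps29 at 849.5 stood above that of Rplp1 at 773.0. The SD between those libraries was 75.15 for Rps12, 205.8 for Rps29 and 118.7 for Rplp1, so that order lies within the spread. In WT CMP the SD was 78.0 for Rps12, 99.62 for Rps29 and 47.37 for Rplp1. In WT MEF, Rplp1 at 624.5 was followed by Rps20 at 417.5. In the average, at the low end, Rpl41 was followed by Rpl22 at 198.6, Rpl36 at 198.8, Rpl23a at 200.5 and Rpl36a at 200.6 CPM per intron, 4 levels that differ by less than the spread between libraries. Even Rpl41 lay above 99.61% of all genes by this measure, and 69 of the 100 genes with the highest level belonged to the family. The paralogs lay apart: Rpl22l1 at 94.16 and Rps27l at 73.66 CPM per intron, and Rpl3l, the muscle form of Rpl3, at 0.2148.

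Between MEP and CMP more ribosomal protein genes rose than fell, by a margin that depends on the scaling. With TMM scaling 40 of the 83 genes rose and 4 fell (edgeR's quasi-likelihood test, adjusted p under 0.05), against 21.2% of all 17563 tested genes that rose and 25.5% that fell, 46.7% together. The median log2 difference of the family was 0.203, against -0.0511 over all genes. Large-subunit genes rose in 27 of 46 cases, with 1 fall, and small-subunit genes in 10 of 31, with 3 falls. Rps2, a small-subunit protein near the mRNA entry channel, stood at 2045, 2049 and 2153 CPM in WT CMP and at 2943, 2933 and 3060 in WT MEP. All MEP libraries lay above all CMP libraries, a log2 difference of 0.65 (SE 0.056, edgeR adjusted p = 8.33e-08). The stalk genes rose together. Rplp1 went from 1458, 1323 and 1276 CPM to 2232, 2231 and 2167 CPM, a log2 difference of 0.85 (SE 0.12), and Rplp0 and Rplp2 rose by 0.61 and 0.51. Rpl36, a large-subunit protein, rose by 0.92 from 564.3, 512.0 and 471.3 CPM to 809.9, 827.9 and 1026 CPM. Other rises on the log2 scale were 0.64 for Rpl41, 0.63 for Rps12, 0.59 for Rpl27a, 0.58 for Rpl8 and 0.53 for Rpl13.

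Against this direction, Rpl39, a small protein that lines the exit tunnel of the large subunit, fell from 1618, 1783 and 1679 CPM in WT CMP to 1133, 1190 and 1070 CPM in WT MEP. The groups do not overlap, and the log2 difference was -0.44 (SE 0.072, edgeR adjusted p = 8.04e-05). Rps24 fell by 0.28, Rps3a1 by 0.23 and Rps27 by 0.21 on the log2 scale. The fall of Rps27 (edgeR adjusted p = 0.0497) passed the threshold in 1 of 6 fits that left out a library, the one without WT MEP replicate 2; its adjusted p ranged from 0.021 to 0.251. The balance of rises and falls depended on the scaling. Scaled to total spliced counts without TMM factors, 22 genes rose and 18 fell. That scaling moves the median of all genes to -0.187, and the family's median to 0.0645, so the family lay above the middle of all genes under both scalings. Rps2, Rplp1, Rplp0, Rplp2, Rpl36, Rps12, Rpl27a, Rpl8 and Rpl13 rose, and Rpl39, Rps24 and Rps3a1 fell, under both.

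Counted in CPM without a test, the MEP libraries lay wholly above the CMP libraries for 28 members and wholly below for 20, where 19.8 and 34.5% of all genes did so. For MEP against GMP it was 45 and 1 (24.7 and 28.6%), and for GMP against CMP 0 and 40 (14.2 and 28.1%). The markers of other lineages also separate these groups. Summed megakaryocyte markers stood at 813.2 to 1154 CPM in WT CMP, 136.0 to 198.4 in WT GMP and 34.54 to 63.56 in WT MEP, and summed dendritic cell markers at 523.2 to 647.9, 138.9 to 168.6 and 5.437 to 11.54 CPM. Their part in the differences between the sorted populations was not tested.

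GMP and CMP differed less. Relative to CMP, 2 of 83 genes rose and 9 fell in GMP, against 24.8% of all genes called (12.5% higher, 12.3% lower), with a family median of 0.00971. Rpl21 fell most, from 2140, 2424 and 2376 CPM in WT CMP to 1506, 1652 and 1715 CPM in WT GMP, with no overlap (log2 difference -0.37, SE 0.074, edgeR adjusted p = 0.00131). Rps24 fell by 0.27, Rpl39 and Rps4x, the X-linked form of Rps4, by 0.24, Rpl32 and Rpl17 by 0.22, and Rps7 and Rpl7 by 0.18. Rpl10, which the large subunit takes up last before it becomes active, rose by 0.25 (edgeR adjusted p = 0.00524), from 2778, 2648 and 2497 CPM to 2960, 2907 and 2735 CPM; the groups overlap on this scale. Rps27l, a paralog of Rps27 that p53 induces, rose by 0.30, from 294.5, 338.4 and 300.5 CPM to 397.8, 302.3 and 350.2 CPM, which also overlap. Scaled to total spliced counts, which moves the median of all genes to -0.133, 0 genes rose and 30 fell, and Rpl10 and Rps27l were not called. The count rested on single libraries: it was 2 without WT GMP replicate 1, 6 without WT GMP replicate 2 and 16 without WT GMP replicate 3, against 11 with all. Rpl21 was called in each of the 6 fits that left out 1 library. Rps24, Rpl32 and Rpl17 lost the call only without WT GMP replicate 1 (edgeR adjusted p = 0.052, 0.0614 and 0.0685) and Rps4x without WT GMP replicate 1 or 2 (0.0899 and 0.0519). Rpl10 lost it only without WT CMP replicate 3 (0.0707). Rpl39 lost it without WT GMP replicate 1 or 2 or WT CMP replicate 2, with an adjusted p up to 0.0966. Rps7 lost it in 4 of the 6 fits, Rps27l in 4 and Rpl7 in 5, with an adjusted p up to 0.157, 0.183 and 0.125.

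Between MEP and GMP, 36 genes rose in MEP and 1, Rpl39, fell, against 45.8% of all genes called (21.1% higher, 24.8% lower). The family median was 0.183 against -0.0325 over all genes. The rises again fell mostly on the large subunit, 28 of 46 genes, with 6 of 31 in the small subunit. Rplp1 rose by 0.52 from 1673, 1693 and 1272 CPM in WT GMP, Rps2 by 0.50, Rpl27a by 0.46, Rpl14 by 0.44 and Rplp0 by 0.41 on the log2 scale. Further rises were 0.41 for Rpl41, 0.39 for Rpl8, 0.38 for Rpl13a, 0.36 for Rps18 and 0.35 for Rpl35. Rpl39 fell by 0.20 (edgeR adjusted p = 0.0308, from 0.0137 to 0.127 with single libraries left out). It lost the call without WT GMP replicate 2 or 3 and without WT MEP replicate 1 or 3. Of the genes named as rising, Rpl13a alone lost its call, without WT GMP replicate 3 or WT MEP replicate 1 or 2, with an edgeR adjusted p up to 0.165.

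**Figure D2:**
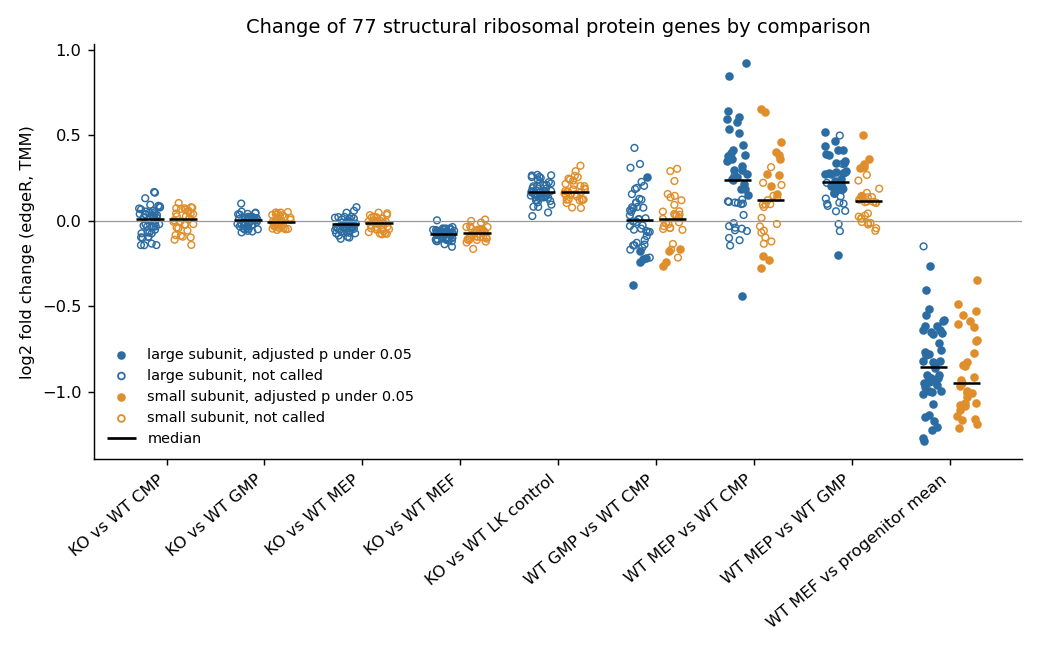
Log2 difference (edgeR, vertical axis) of each of the 77 genes of ribosomal proteins proper in the comparisons of genotype and of cell type, with large-subunit genes in blue, small-subunit genes in orange and a bar at the median of each. Filled points passed an adjusted p of 0.05: none did between KO and WT, most did in WT MEF against the progenitors, where all points lie below 0, and in MEP more large-subunit than small-subunit points are filled above 0.

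In fibroblasts the family was lower than in the progenitors. Against the mean of WT CMP, GMP and MEP, 78 of 83 genes fell and 1 rose in WT MEF, against 68.4% of all 19544 tested genes called (38.9% higher, 29.4% lower). The family median was -0.862 against 0.173 over all genes. The deepest falls included 1.29 for Rpl35a, 1.27 for Rpl14, 1.22 for Rpl36a, 1.21 for Rpl28 and 1.19 for Rps29 on the log2 scale. Rpl35a, a large-subunit protein mutated in some patients with Diamond-Blackfan anaemia, stood at 245.0, 289.4 and 270.2 CPM in WT MEF and at 654.3 to 832.0 CPM in the 9 WT progenitor libraries. The shallowest falls among the called genes were those of Rplp1 at 0.27, Rps10 at 0.35 and Rpl41 at 0.41. The genes not called were Rps27l (0.17), Rpl27a (-0.15), Rpl3l (-0.25) and Rps19bp1 (-0.02). Rpl39l, a paralog of Rpl39 described from testis, was the rise: it had 10.26, 5.849 and 11.59 CPM in WT MEF and 13.47, 8.41 and 10.25 in KO MEF, against 0 to 0.6862 in the progenitors. Its fitted log2 difference of 5.76 (SE 0.82) depends on the low progenitor counts, which were 0 in replicate 3 of each WT progenitor.

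Other genes of ribosome production also differed between the cell types. In MEP against CMP, where 21.2% of all genes rose and 25.5% fell, of 77 mitochondrial ribosomal protein genes, 71 rose and 1 fell (median 0.709), and of 40 ribosome biogenesis factors 39 rose and 0 fell (median 0.655). Named by their small p, the biogenesis factors Noc4l, Nolc1, Utp4 and Rrp12 rose by 1.05, 1.01, 0.98 and 0.94 on the log2 scale. Of 14 genes of RNA polymerase I and its factors, 10 rose and 2 fell, with Taf1c at 1.17, Polr1b at 0.87, Polr1a at 0.77 and Ubtf at 0.56. Of 18 other mRNAs with a TOP motif, 11 rose and 2 fell (median 0.217), with Eef1d, an elongation factor subunit, at 0.77, Npm1 at 0.67 and Vim at -4.78. Of 15 genes of the mTOR and S6 kinase pathway, 10 rose and 1 fell, with Eif4ebp1, the translation repressor that mTOR inactivates, at 1.49 and Larp1 at 0.61. Against GMP, 57 mitochondrial ribosomal protein genes rose and 2 fell in MEP, where 21.1% of all genes rose and 24.8% fell. In WT MEF, 65 of the 77 mitochondrial ribosomal protein genes and 39 of the 40 biogenesis factors fell (medians -0.724 and -1.57). Of 14 genes of ribosomal stress and p53, a list that holds Trp53 itself, 11 rose and 1 fell (median 3.33). Of all genes, 38.9% rose and 29.4% fell in WT MEF.

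Across the 18 progenitor libraries the family varied together, but not every gene followed. The correlation of a gene's log2 CPM with the mean of the other members had a median r of 0.69, and 60 of the 77 genes of ribosomal proteins proper were above 0.5. The lowest were Rpl39 at -0.157 and Rpl10 at -0.0547. In the 12 Lin-Kit+ libraries the median r was 0.892, with 70 of 77 above 0.5 and Rpl23a lowest at -0.122. Outside the family, the genes whose levels were most like the family's mean across the 18 libraries were Fbxl6 (r = 0.95), Commd4 (0.949), Rack1 (0.945), the last of which codes for a scaffold protein of the small subunit, Gm45713 (0.944) and Cryl1 (0.93), with the translation factor Eef2 at 0.912. These are descriptions over libraries that share cell types and depth. Of the members' introns, 13 also belong to another gene, and reads counted for both can raise such a correlation. Whether Gm45713 shares any is not given here.

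Loss of Zrsr2 moved none of the 83 genes past the threshold in any cell type. edgeR called 0 of 83 in CMP, GMP, MEP, MEF and control-hairpin Lin-Kit+ cells, where 0.0228, 0.0171, 0.0456, 0.0 and 0.0% of all genes were called. At an unadjusted p under 0.05 there were 2, 0, 0, 1 and 0 members, and DESeq2 and limma-voom also called 0 in each. Under the Zrsr1 hairpins edgeR likewise called 0 between genotypes (0.0% of all genes, 0 members at an unadjusted p under 0.05). With the experiment as a block the Lin-Kit+ comparisons also gave 0 members, where 0.00561% (control) and 0.028% (Zrsr1 hairpins) of all genes were called. The family's median log2 difference was 0.0105 in CMP, -0.00763 in GMP, -0.0234 in MEP, -0.0775 in MEF and 0.159 in Lin-Kit+ cells, against medians of all genes between -0.0111 and 0. The share of spliced counts differed between KO and WT by 0.04 percentage points in CMP, -0.0167 in GMP, 0.01 in MEP, -0.462 in MEF and 0.491 in Lin-Kit+ cells (exact permutation p = 0.9, 1.0, 1.0, 0.6 and 0.667). The median standard error of a member's log2 difference was 0.0775 in CMP, so differences of that order were not detectable. In simulated counts over all genes, the gene test found 35.4% of 1.5-fold changes between KO and WT in CMP and 0% in MEF.

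The smallest p among the members belonged to Rpl22, a large-subunit protein that also regulates splicing. It had 743.3, 719.4 and 748.4 CPM in WT CMP and 678.0, 676.6 and 661.7 in KO CMP. The groups do not overlap, yet the log2 difference of -0.14 (SE 0.051, unadjusted p = 0.0128, edgeR adjusted p = 0.82) did not pass. Its paralog Rpl22l1, which Rpl22 represses in other cells, had 317.6, 359.7 and 354.8 CPM in WT CMP and 263.1, 324.3 and 316.8 in KO CMP. In CMP the KO libraries lay wholly above the WT libraries for 3 members and wholly below for 8, where 6.24 and 5.8% of all genes did so. In GMP this was 0 and 0 (3.29 and 3.62% of all genes), in MEP 0 and 2 (3.93 and 2.57%) and in MEF 0 and 4 (2.32 and 3.12%). For Lin-Kit+ control libraries, 2 against 2, it was 12 and 0 (5.64 and 11.7%). Of the genes linked to Diamond-Blackfan anaemia, Rps19 had 2675, 2787 and 2628 CPM in WT CMP and 2774, 2865 and 2649 in KO CMP, and Rpl5 had 2810, 2945 and 2974 in WT CMP against 2659, 2806 and 2748 in KO CMP. Rpl11 had 1830, 2000 and 1982 CPM in WT CMP and 1876, 1965 and 1929 in KO CMP. Rps19 and Rpl11 overlap between the genotypes. For Rpl5 the highest KO value, 2806, lies just below the lowest WT value, 2810. Rps6, the small-subunit protein that S6 kinase phosphorylates, had 2597, 2593 and 2610 CPM in WT CMP and 2606, 2715 and 2672 in KO CMP, and Rps14 had 1250, 1260 and 1156 against 1323, 1337 and 1132. In MEF the largest member difference was that of Rpl3l, at -1.64 (unadjusted p = 0.02, edgeR adjusted p = 0.9999), on levels of 0.3806 to 2.781 CPM.

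In Lin-Kit+ cells the hairpins against Zrsr1 differed from each other in the family's share of spliced counts. With the control hairpin the share of spliced counts was 8.575% in experiment 1 and 8.108% in experiment 2 in WT cells and 8.54 and 9.126% in KO cells. With sh1 it was 10.71 and 8.758% in WT and 10.85 and 8.84% in KO cells. With sh10 it was 6.668 and 5.81% in WT and 7.282 and 5.168% in KO cells. The sh1 library lay above the sh10 library of its genotype and experiment by 4.04, 2.95, 3.57 and 3.67 percentage points, each of the 4 pairs the same way. Each sh10 library lay below its control, by -1.91, -2.3, -1.26 and -3.96 points. For sh1 the difference from the control was 2.14 and 0.65 points in WT cells and 2.31 and -0.286 in KO cells, so 3 of 4 libraries lay above it.

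**Figure D3:**
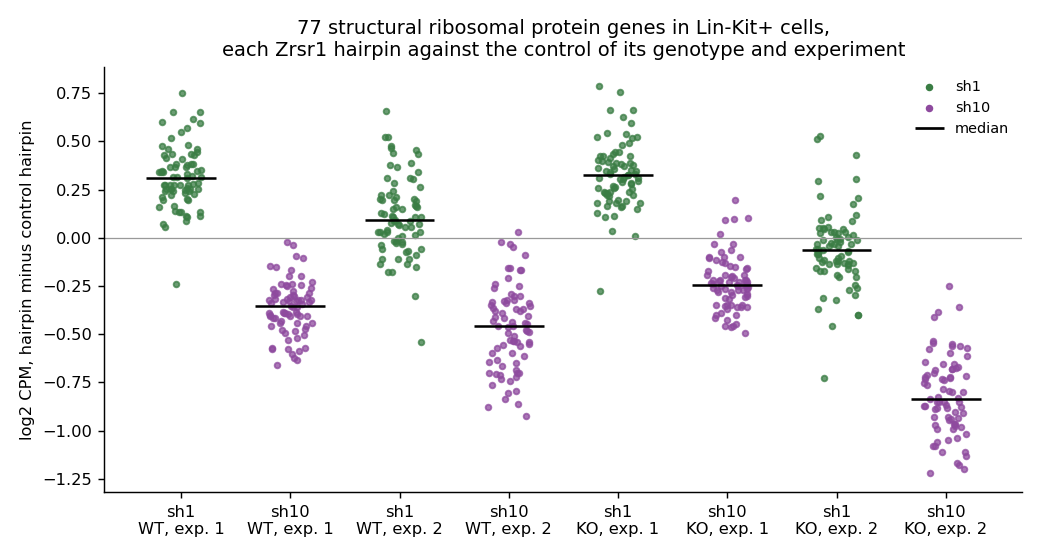
Difference in log2 CPM (vertical axis) between a Zrsr1 hairpin and the control hairpin of the same genotype and experiment for each of the 77 genes of ribosomal proteins proper (points), with a bar at their median. Over all 83 members the medians are 0.285 and 0.0882 (WT, experiments 1 and 2) and 0.324 and -0.0657 (KO) for sh1, and -0.338, -0.456, -0.238 and -0.825 for sh10.

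The comparison laid down in the design averages both hairpins. Against the control, edgeR called 0 of 83 genes in WT cells and 0 in KO cells, where 0.0% of all genes were called in each. At an unadjusted p under 0.05 there were 0 and 1. With the experiment as a block, which pairs the libraries by the experiment number in their labels, 4 genes rose in WT cells, where 8.75% of all genes were called (4.64% higher, 4.11% lower): Rpl5 by 0.40 (edgeR adjusted p = 0.0207), Rps7 by 0.39, Rps27l by 0.53 and Rpl22l1 by 0.74 on the log2 scale. In KO cells 1 gene rose and 2 fell, where 9.0% of all genes were called (4.62% higher, 4.38% lower): Rpl5 rose by 0.35, Rpl11 fell by 0.45 and Rpl36a by 0.45. The difference between the hairpin effects in KO and WT cells called 0 genes (0.0% of all genes; 0 with the block). Taken one by one with the block, a setting added after the data were seen, 15 genes were higher with sh1 in WT cells and 6 in KO cells, and 0 were lower in both. Of all genes, 5.22% were called in WT cells (3.32% higher, 1.9% lower) and 6.21% in KO cells (3.69% higher, 2.52% lower). The 6 were all among the 15 and included Rpl5, Rpl8, Rplp1, Rps7 and Rps27l. With the same setting 21 genes were lower with sh10 in WT cells and 30 in KO cells, and 0 were higher in both. Of all genes, 10.2% were called in WT cells (5.48% higher, 4.73% lower) and 8.81% in KO cells (4.57% higher, 4.23% lower). The 21 of WT cells were all among the 30 of KO cells, which is 70.0% of the latter, and included Rps2, Rpl12, Rpl3, Rpl4 and Rpl22. Both hairpins share the control libraries. Without the block 0 genes were called for either hairpin.

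The direct contrast of sh1 with sh10 does not use the control libraries. It too was added after the data were seen. In it 6 genes rose and 0 fell, against 0.746% of all genes called (0.449% higher, 0.297% lower). They included Rps19, Rps3a1, Rpl38, Rpl21 and Rpl28. Rps19, the gene most often mutated in Diamond-Blackfan anaemia, had 1774 and 1470 CPM with sh1 in WT cells and 1848 and 1485 in KO cells, against 998.0 and 867.8 in WT and 1128 and 713.6 in KO cells with sh10. The 4 libraries of sh1 lay above the 4 of sh10, a log2 difference of 0.85 (SE 0.13, edgeR adjusted p = 0.0302). Of the 83 genes, 82 had a positive difference, with a median of 0.664 against -0.0166 over all genes. With the experiment as a block 76 genes rose and 0 fell (11.4% of all genes called, 6.11% higher and 5.33% lower), and leaving out any 1 of the 8 libraries left 0 called without the block. Among the 7 genes not called with the block, Rpl11 stood apart from its partner Rpl5. Rpl11 had 1008 and 937.2 CPM in the WT controls and 1031 and 1116 in the KO controls. It was lower with each hairpin, at 852.5 and 644.8 (WT) and 852.9 and 674.6 (KO) with sh1 and at 762.9 and 740.1 (WT) and 847.9 and 624.9 (KO) with sh10. Rpl5 had 1206 and 835.7 CPM in the WT controls, 1826 and 1317 with sh1 and 1131 and 853.6 with sh10. The contrast of sh1 with sh10 gave 0.0384 for Rpl11 (SE 0.0974) and 0.677 for Rpl5 (edgeR adjusted p = 0.000487) with the block.

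Neutrophil markers moved with the hairpins as well. Their sum was 5996 and 6792 CPM in the WT controls, 5794 and 6627 with sh1 and 16130 and 34490 with sh10; in KO cells it was 4608 and 10490, 6989 and 8900, and 11950 and 26020 CPM. The sh10 libraries were highest in each genotype and experiment. Cycling markers were lower in experiment 2, at 877.4 to 1082 CPM in the controls against 1728 to 1913 in experiment 1. They were also lower with each hairpin than with the control in each genotype and experiment. With sh1 they stood at 1247 and 538.2 CPM in WT and 1103 and 529.4 in KO cells. With sh10 they stood at 1258 and 634.7 in WT and 1281 and 479.8 in KO cells. Erythroid markers were lower with sh10 than sh1, at 238.1 and 110.6 against 646.5 and 354.6 CPM in WT cells. In KO cells they stood at 295.8 and 106.8 against 843.3 and 367.6 CPM. The part of cell composition and cycling in the difference between the hairpins was not tested.

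Experiment 2 differed from experiment 1 in the family's reads along the gene. In this added contrast 24 genes rose and 27 fell, against 37.1% of all genes called (18.7% higher, 18.3% lower). Rpl23a, a large-subunit protein with 1 listed intron, rose by 2.80 on the log2 scale: it had 48.83 to 81.22 CPM in the 6 libraries of experiment 1 and 244.0 to 480.6 in those of experiment 2. Rps26 rose by 1.0 and Rps27 by 0.73, and Rpl39 fell by 1.24 and Rpl22l1 by 1.03. The differences ran along the gene. The first intron of Rps26 went from a mean of 45.0 to 242 CPM, that of Rps27 from 172 to 345 while its last intron stayed at 259 and 249, and the last intron of Rpl39 went from 552 to 124 CPM. Over 81 members with a first and a last intron, the median log2 ratio of the first intron's reads to the last one's was -0.744 to -0.523 in the libraries of experiment 1 and 0.331 to 0.463 in those of experiment 2. The difference was 1.05 (exact permutation p = 0.00216, the smallest for 6 against 6; 0.0312 when paired by genotype and hairpin, the smallest for 6 pairs), and 67 of 81 genes were higher in experiment 2. Over 11414 genes the same difference was 0.259 (exact permutation p = 0.00216), and 6644 of them were higher in experiment 2. Both genotypes and all 3 hairpins were present in each experiment.

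**Figure D4:**
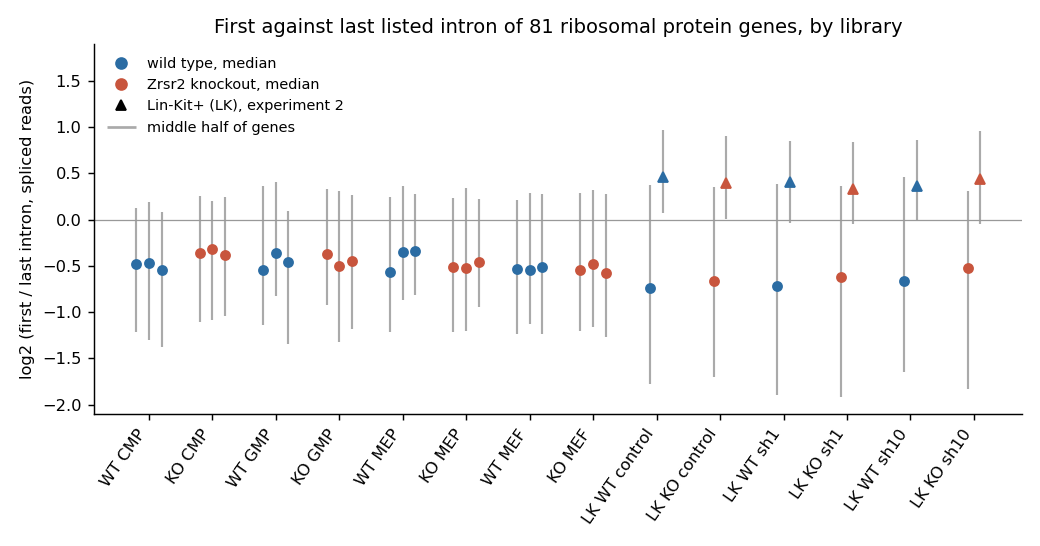
Log2 ratio of spliced reads over a gene's first listed intron to those over its last (vertical axis) in each library, as the median of 81 ribosomal protein genes (points) with the range of the middle 50% of genes (lines). The 6 Lin-Kit+ libraries of experiment 2 (triangles, 0.331 to 0.463) lie above 0, and those of experiment 1 (-0.744 to -0.523) and the progenitor and MEF libraries lie below it.

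The study's question, splicing of U12-type introns, reaches the family through intron retention. The retention value is 100 times the reads across an intron's 2 ends divided by those plus 2 times its spliced reads. Over 343 introns with at least 20 reads in every library, the median retention was 0.4585%, against 1.426% over 68903 introns of all genes, and 20 of the 343 (5.83%) were above 5%, against 15.5%. The 55 introns that hold a snoRNA had a median of 0.578% and the other 288 a median of 0.42%. The highest values came from long introns that span an exon and 2 shorter introns. Their few spliced reads are those that skip the exon, while the reads at their ends are divided by those alone, so the value does not measure how much of the sequence was retained. The shorter introns that share an end with the 3 introns below were used in at least 99.3% of the spliced reads over them in each group. An Rpl10a intron of 1307 bases (chr17:28329523-28330829) had 98.05% (90.65 to 100% by library) on 165 spliced reads in all libraries together. An Rpl13a intron of 671 bases (chr7:45126538-45127208) with Snord33 and Snord34 had 81.26% (30.35 to 96.75%) on 967 spliced reads, and an Rpl18 intron of 657 bases (chr7:45719637-45720293) had 71.09%. In some introns the reads sat mostly at 1 end. The Rps21 intron of 173 bases (chr2:180257448-180257620) had 13.99%, from 210 reads at its 5′ end and 45260 at its 3′ end. Such a ratio of at least 10 between the ends occurred in 59 of 348 member introns with at least 100 such reads (17%), against 18.7% of all.

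Loss of Zrsr2 moved no member intron past the threshold. In edgeR's diffSpliceDGE, which tests the reads at an intron's ends against its spliced reads, 0 of 346 introns were called in CMP, GMP and MEP, 0 of 315 in MEF and 0 of 339 in Lin-Kit+ cells in any comparison of genotype or hairpin. The share of all introns called was 0.00659% in CMP, 0.00824% in GMP, 0.00494% in MEP and 0.0% in MEF and Lin-Kit+ cells. The test misses many changes. In simulated counts for KO against WT CMP, drawn from introns of all genes, it found 2% of 2-fold and 26% of 4-fold changes. Of 1.5-fold changes it found 0%. Calls of 0 therefore do not show that retention was unchanged. At an unadjusted p under 0.05 there were 23, 5 and 7 introns in CMP, GMP and MEP, 15 in MEF and 2 to 8 in the comparisons of Lin-Kit+ cells, and a limma fit on the log2 ratios called 0 in each. Of the 364 introns, the sequence of 104 could be read from GENCODE transcripts that retain them. Of these 102 start with GT and 2 with GC, and all end in AG. The letters GTATCCTT, which match the U12-type 5′ splice site in full, start 1 of the 104, against 38 of 8270 introns (0.459%) that could be read in the same way over all genes. It is the third intron of Rpl4 (chr9:64175301-64175583, plus strand, 283 bases), which holds Snord16a and is shown because it is the only readable member intron with the letters that Zrsr2's machinery reads. Capitals mark those 8 bases.

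Rpl4 intron: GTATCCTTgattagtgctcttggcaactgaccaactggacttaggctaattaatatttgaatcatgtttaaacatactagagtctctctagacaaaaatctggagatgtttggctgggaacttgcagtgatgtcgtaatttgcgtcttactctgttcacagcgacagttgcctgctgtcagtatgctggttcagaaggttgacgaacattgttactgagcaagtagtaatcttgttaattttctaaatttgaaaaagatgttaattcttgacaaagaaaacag

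The letters alone do not show which machinery removes the intron: the best match to the U12-type branch site in its last 40 bases has 2 mismatches. Its retention was 0.745% ± 0.114 (SD, n = 3) in KO CMP and 0.64% ± 0.115 in WT CMP. In MEF it was 1.02% in KO and 1.41% in WT. The intron was called in no comparison of genotype.

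Between cell types a few member introns differed. In MEP against CMP 22 introns were higher and 5 lower, against 0.664% of all 60675 introns called (0.237% higher, 0.427% lower). The 22 included 8 introns of Rpl3, with log2 differences in the ratio of end reads to spliced reads of 0.71 to 1.51, and introns of Rpl31 (1.93) and Rps19 (1.71 and 1.65). All 5 lower introns lie in Rps24. This gene has 9 listed introns, several of them nested and sharing spliced reads, so its called introns need not be separate events. In GMP against CMP 1 intron was higher (Rps27, 116 bases, 1.27) and 3 lower, again of Rps24, against 0.0824% of all (0.0527% higher, 0.0297% lower). In MEP against GMP 4 were higher and 0 lower, against 0.496% of all (0.232% higher, 0.264% lower). With single libraries left out, these counts were 2 to 4 in GMP against CMP, with 2 without WT GMP replicate 1 or 2. In MEP against GMP they were 1 to 2, with 1 without WT GMP replicate 1 or WT MEP replicate 1 and 2 without each of the others. A limma fit on the log2 ratios called 0 in each. With single libraries left out, the count in MEP against CMP was 12 to 24, and 15, 13 and 17 without WT CMP replicate 1, 2 and 3 and 14 and 12 without WT MEP replicate 2 and 3; the 5 lower introns were 5 in each.

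Rps24, a small-subunit protein mutated in some patients with Diamond-Blackfan anaemia, ends its reading frame in 3 ways, depending on 2 tiny exons before its last exon on chromosome 14. The junctions are shown because the letters decide the protein's last residues. Capitals mark the bases that follow the shared exon, up to the stop codon in the form with neither exon and over the whole exon in the others.

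Neither exon (capitals chr14:24495775-24495786): gttggtgctggcaaaaagCCAAAGGAGTAG
20-base exon (capitals chr14:24495430-24495449): tggcaaaaagTGAGTGGAGATTGGATACAG
18-base exon (capitals chr14:24494052-24494069): gctggcaaaaagAAATGAAATACCTAGCAG

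In the first form 3 codons precede the stop, in the form with the 20-base exon the stop follows at once, and in the form with the 18-base exon 1 codon precedes it. The use of the 20-base exon, as a percent of the spliced reads that leave the shared exon (4132 to 36426 reads per library), differed between cell types. It was 4.26, 4.40 and 5.72% in WT CMP (4.79% ± 0.803, SD, n = 3), 0.324 to 0.487% in WT GMP, 0.0887 to 0.255% in WT MEP and 14.2 to 17.5% in WT MEF (15.6% ± 1.71). The 4 groups do not overlap. KO cells showed the same order, with 4.96% ± 1.37 in CMP, 0.381% in GMP, 0.185% in MEP and 20.5% ± 4.29 in MEF. The exact permutation p was 0.1 for each pair of cell types tested within a genotype, the smallest possible, and 0.163 after adjustment over 13 comparisons. Between KO and WT it was 0.8 in CMP, 0.5 in GMP, 1.0 in MEP and 0.2 in MEF. The 18-base exon followed the same order at lower use, with 0.207% in WT CMP, 0.072% in WT GMP, 0.0184% in WT MEP and 1.89% ± 0.23 in WT MEF. GMP and MEP overlap (exact permutation p = 0.3) and rest on 16, 2 and 27 reads of this exon in WT GMP and 4, 1 and 9 in WT MEP.

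In Lin-Kit+ cells the 20-base exon was rare. Its use was 0.156 and 0.282% in the WT controls and 0.164 and 0.170% in the KO controls. With sh10 it was 0.422 and 0.671% in WT and 0.457 and 0.339% in KO cells, and with sh1 it was 0.156 and 0.0126% in WT and 0.0419 and 0.0% in KO cells. The 4 sh10 libraries lay above the 4 sh1 libraries (exact permutation p = 0.0286, the smallest for 4 against 4, adjusted 0.163 over 13). These values rest on few reads of the exon. With sh10 there were 26 and 36 in WT and 28 and 14 in KO cells. With sh1 there were 17 and 1 in WT and 4 and 0 in KO cells. Paired by genotype and experiment, as the libraries share an experiment, sh10 was higher in 4 of 4 pairs and the exact permutation p was 0.125, the smallest that 4 pairs allow. Counted from the other side, as a percent of the reads that enter the last exon, the exon's use was 2.56% ± 0.583 in WT CMP, 0.147% in WT GMP, 0.0861% in WT MEP and 4.87% ± 0.366 in WT MEF, lower than from the first side but in the same order of means; MEP and GMP overlap (exact permutation p = 0.3), and so do sh1 and sh10 (p = 0.143). Megakaryocyte and dendritic markers are highest in CMP among the progenitors, as given above, and their part in the use of the exon was not tested.

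**Figure D5:**
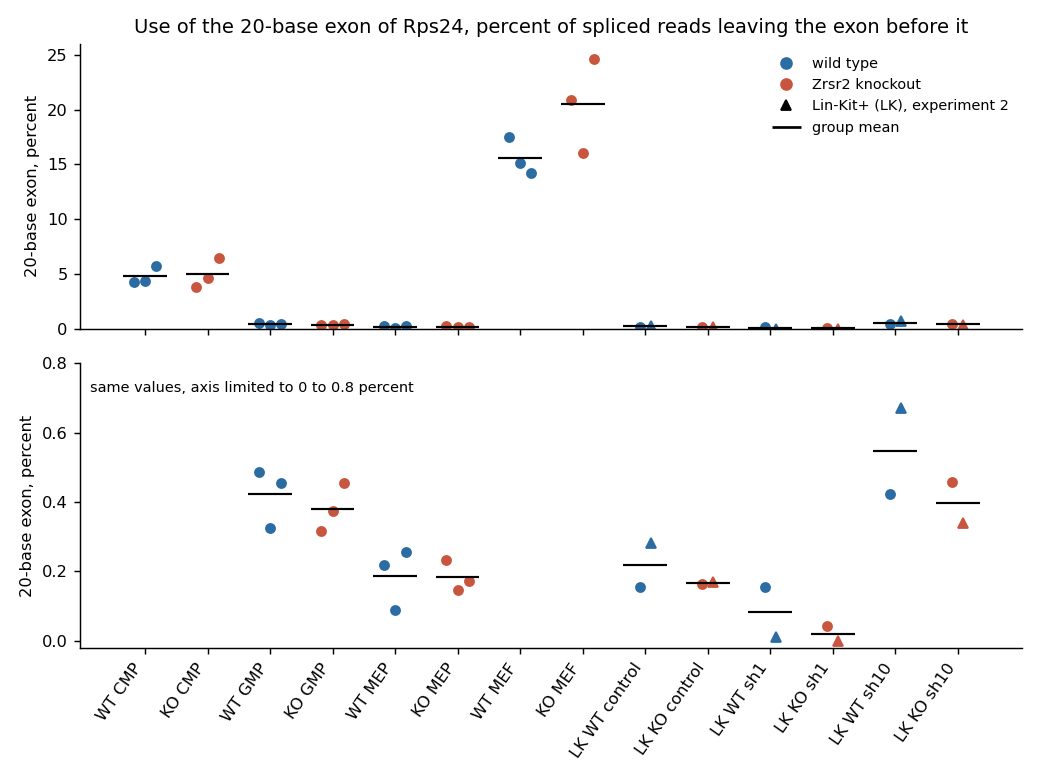
Percent of spliced reads leaving the shared Rps24 exon that enter the 20-base exon (vertical axis) in each library, grouped by cell type, genotype and hairpin, with a bar at each group mean; the lower panel repeats the values up to 0.8%. WT MEF (14.2 to 17.5%) and WT CMP (4.26 to 5.72%) stand above WT GMP (0.324 to 0.487%) and WT MEP (0.0887 to 0.255%), and KO and WT points overlap in each of these cell types.

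Rps24 was not the sole member with competing introns. Of 34 pairs of nested introns in 14 members with enough reads, 17 pairs in 10 genes were used at 1 to 99%. Examples chosen after their values were seen are a 113-base intron of Rps12, used in 49.7% of the reads over it in WT CMP, 46.2% in GMP, 44.4% in MEP and 43.8% in MEF, and a 266-base intron of Rps19, at 1.17% in WT CMP, 2.04% in GMP, 2.62% in MEP and 3.64% in MEF. The exact permutation p between cell types was 0.1 at best for these. The WT GMP libraries ranged from 42.6 to 51.2% for the Rps12 intron. In KO CMP, GMP, MEP and MEF its means were 45.9, 46.5, 46.2 and 43.4%, without the WT order among the progenitors. The Rps19 means in those KO groups were 1.33, 1.81, 2.7 and 3.26%, in the WT order. In Lin-Kit+ cells both introns differed by experiment: the Rps12 intron was used in 47.7 to 51.8% of the reads in the libraries of experiment 1 and 21.9 to 23.1% in those of experiment 2, and the Rps19 intron in 2.38 to 4.59% and 0.923 to 1.99%.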

How the data were processed

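Each of the 36 libraries came with a table of 219945 introns. Per the file headers it holds the counts of reads across an intron's 2 ends and of spliced reads, a fraction of the intron covered (not used here), and the percent retained as the authors deposited it. Recomputed from the counts, the deposited percent differed by at most 2.8e-14. Per the labels, RNA was polyadenylated and libraries were made with TruSeq, or with NEBNext Ultra for Lin-Kit+ cells. Coordinates are mm10 per the submitters' processing notes. The sources used here give no aligner, counting program or strand. Reads from a gene and its antisense partner can therefore not be separated, and 13 member introns also belong to another gene. A spliced read is counted for each intron inside its gap, so nested introns share reads.

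Introns were matched to GENCODE M21 by position. Spliced counts were summed per gene and tested with edgeR 4.0.16 (TMM, filterByExpr, quasi-likelihood test, Benjamini-Hochberg over all tested genes, threshold 0.05), in 1 fit each for the 18 progenitor, 6 MEF and 12 Lin-Kit+ libraries and 1 for progenitors and MEF together. Retention was tested with diffSpliceDGE, with effects as log2 of the ratio of counts after adding 0.5 and limma 3.58.1 standard errors. Shares were compared by exact two-sided permutation tests over samples. Alternatives used DESeq2 1.42.0, limma-voom, other scalings and filters, and replicate blocks. Scripts were tested on simulated data.

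Named genes were those of the 12 largest called log2 differences per direction, or the 4 smallest p-values where fewer were called, with Rps19, Rpl5, Rpl11, Rps14, Rps6 and the paralog pairs always eligible. The 5 highest and lowest levels, the called introns and those with the highest retention, and up to 4 genes per list were named likewise. The members and lists were chosen with earlier results of these data known. The deviations of same-numbered progenitor libraries from their group means correlated at -0.0726 to 0.242, over 0.1 in 12 of 18 pairs. Those of Lin-Kit+ libraries of 1 experiment correlated at 0.659 to 0.73, so the experiment pairs them. The paired exact tests were added after the data were seen. KO and WT libraries of 1 progenitor type and the same number correlated at 0.0471 to 0.293, with a median of 0.196 and 7 of 9 pairs over 0.1. Those of other numbers correlated at -0.23 to 0.0452. For MEP of the same number it was 0.19 to 0.293. Results for some members are not reported here.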

Additional observations from a re-analysis of the deposited data

How the results depend on the processing

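Of the alternatives tried, none reversed the sign of a called difference among the genes eligible to be named. Other members were not checked for this. The balance of rises and falls in MEP against CMP did depend on the scaling, as given above. Every KO against WT comparison kept 0 called members under each alternative. In GMP against CMP the 11 called genes became 30 with total spliced counts as the scaling, 7 without a filter on low counts and 19 with DESeq2, and 2 to 16 with 1 library left out. In MEP against GMP the 37 became 25 to 37 with 1 library left out. For sh1 against sh10 the 6 became 1 with total spliced counts, 0 with the median over introns, 53 with DESeq2, 15 with limma-voom, 0 when fitted on those groups alone and 0 to 0 with 1 library left out. With the experiment as a replicate block, which pairs the libraries, they became 76. With the same block the averaged hairpins against control went from 0 to 4 in WT and 3 in KO cells, sh1 alone to 15 and 6, and sh10 alone to 21 and 30, the last 4 settings chosen after seeing the data. The replicate block by number left 0 members called in KO against WT CMP, GMP, MEP and MEF. A block by genotype and number of the progenitor libraries, which treats libraries sharing both as 1 mouse, gave 15 in GMP against CMP. It changed no other gene count by over 1.5 times. For introns, limma on the ratios, with and without the block by genotype and number, gave 0 in place of 4 in GMP against CMP, 0 in place of 27 in MEP against CMP and 0 in place of 4 in MEP against GMP. With 1 library left out of the diffSpliceDGE fits the counts were 2 to 4, 12 to 24 and 1 to 2. The differences in share became -2.6 for GMP against CMP and 3.16 for MEP against GMP with the mean over introns per gene. With 1 library left out the share differences between KO and WT were -0.178 to 0.287 in CMP, -0.502 to 0.273 in GMP, -0.368 to 0.208 in MEP, -0.687 to -0.0557 for MEF and 0.198 to 0.784 for the control hairpin. Those between cell types were -1.61 to -1.17 for GMP against CMP, 0.317 to 0.892 for MEP against CMP and 1.66 to 2.24 for MEP against GMP. The cause of these changes was not tested. Groups of 2 or 3 libraries, counts that follow intron number, and reads that lack a stated strand limit all of these values.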
